A study of Mus musculus with 6 samples.

Results

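The genes described here are 39 genes of the interferon response, measured by RNA sequencing in 6 mouse BCR-ABL+ cell lines. They are the receptor chains for type I and type II interferon, the factors that carry the signal to the nucleus, and a set of genes that interferon is known to switch on. They were chosen by symbol for these roles, with earlier results of these data known, and make up 39 of the 25965 rows of the count table. Counts and shares of members below therefore describe this list and are not independent of the data. Pydc4 is the table's name for the gene that RefSeq calls Ifi213. All 39 have a row, and 31 of them passed the filter on low counts and entered the test together with all other genes, 10896 in total. The 8 that did not pass were Zbp1, Ifit1, Ifit3, Oasl2, Mx1, Mx2, Rsad2 and Ifi44.

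The lines carry BCR-ABL, the fusion kinase of Philadelphia chromosome-positive leukaemia, and were grown in RPMI medium. In the 3 Cdk6 knock out lines (KO1, KO2 and KO3) electroporation had delivered a plasmid with Cas9, GFP and guide RNAs against CDK6, a kinase that pairs with D-type cyclins to drive cells out of G1. The 3 Cdk6 wild type lines (WT1, WT2 and WT3) belong to the arm that received the same Cas9 and GFP plasmid without those guides. GFP+ cells were sorted and grown out from single cells, so a line is 1 clone, and per the labels loss of the CDK6 protein was checked by Western blot. No interferon or other stimulus is named for either group. The labels do not say whether the lines came from separate animals, so p-values measure only the spread between these lines.

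Interferons are cytokines of the antiviral defence. Type I interferons bind the receptor made of IFNAR1 and IFNAR2, and interferon gamma binds the receptor made of IFNGR1 and IFNGR2. JAK kinases on the receptor tails then phosphorylate STAT proteins. After type I interferon a complex that holds STAT2 and IRF9 binds the interferon-stimulated response element (ISRE) in the promoters of its target genes, while interferon gamma acts mainly through STAT dimers at another DNA element, the gamma-activated site (GAS). Some target genes, Stat2, Irf9 and Irf7 among them, encode parts of the same pathway, so the pathway induces some of its own components.

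Total counts per library were 17859519 to 20415572 in KO lines and 19060127 to 24108563 in WT lines, and 3 counts, the floor used here for reading low values, correspond to 0.125 to 0.165 CPM (counts scaled to library size with TMM factors). Cdk6 itself had 41.3, 75.1 and 38.9 CPM in KO1, KO2 and KO3, against 39.7, 45.6 and 55.8 CPM in WT1, WT2 and WT3. The sources used here do not say where the edit lies, and a count over the whole gene does not check the labels. KO2 stood apart from the other 5 libraries on the first principal component of all tested genes, which holds 69.7% of the variance (a score of 68.4 for KO2, -23.4 to -19.0 for KO1 and KO3, 10.3 for WT2 and -19.1 to -17.3 for WT1 and WT3). Results are therefore given with and without KO2. Markers of B cell precursors were present in every library, with all 11 detected and a summed level of 4540 to 5825 CPM in KO lines and 4976 to 5179 CPM in WT lines. Of 11 myeloid markers 4 were at 0 in every library, S100a8, S100a9, Elane and Ly6g, and the list summed to 26.9 to 57.8 CPM in KO lines and 39.5 to 65.2 CPM in WT lines. Within it Lyz2, the lysozyme gene of myeloid cells, lay lower in every KO line, with 12.2, 15.8 and 14.6 CPM in KO lines, against 38.9, 27.2 and 37.0 CPM in WT lines (log2 fold change -1.27 ± 0.19, adjusted p = 0.479 in edgeR and 1.1e-05 in DESeq2). Itgam was high in KO1 alone, with 28.9 CPM, against 0.256 and 4.73 CPM in KO2 and KO3 and 1.17 to 4.75 CPM in WT lines. Of 5 markers of plasmacytoid dendritic cells, a major source of type I interferon, 4 including Siglech were at 0 throughout, and the list, all of it Cox6a2, summed to 0.103 to 12.5 CPM in KO lines and 1.08 to 1.17 CPM in WT lines. Of 9 T and NK cell markers 5 including Cd3e and Ncr1 were at 0 throughout, and the list summed to 10.3 to 80.5 CPM in KO lines and 14.3 to 22.2 CPM in WT lines, nearly all of it Klrb1c and highest in KO2. Erythroid and megakaryocyte markers summed to 0.992 to 9.18 CPM in KO lines and 1.21 to 2.66 CPM in WT lines, and stromal markers, nearly all of it Pecam1, to 93.8 to 159 CPM in KO lines and 78.9 to 116 CPM in WT lines. The part of these transcripts in the results was not tested.

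The interferon genes lay on balance higher in the KO lines than in the WT lines, most of all in KO2, and in edgeR's quasi-likelihood test none passed an adjusted p of 0.05. The median log2 fold change (KO over WT) of the 31 tested members was 0.54, against 0.01 over all tested genes, and it was 0.30 without KO2. The log2 fold change was above 0 in 28 of the 31, while 52.8% of all tested genes had a value above 0. Without KO2 it was above 0 in 25 of 32 members and below 0 in 7. In 11 of the 31 every KO library lay above every WT library, against 8.58% of all tested genes. In 0 of the 31 did every KO library lie below every WT library, against 11% of all tested genes. The 11 were Ifnar1, Stat2, Irf2, Eif2ak2, Adar, Pydc4, Oas1a, Oas2, Oas3, Dtx3l and Parp14. Among them Oas3 passed the low-count filter only through its KO lines, so its separation is not independent of the filter. These are 1 receptor chain, 2 signal carriers, 3 sensors, 3 of the Oas family and 2 genes of the Parp9 group.

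No member and no other gene was called (0% of 10896, edgeR quasi-likelihood test, Benjamini-Hochberg adjustment), and the smallest adjusted p of a member was 0.479. At an unadjusted p under 0.05, 9 of the 31 were higher in KO, the same genes as above without Adar and Oas2, against 4.35% of all tested genes, and 0 were lower, against 5.1% of all tested genes. DESeq2 called 1 of 33 members with an adjusted p as higher in KO, Pydc4, and 0 as lower, beside 0.705% and 1.24% of all genes with an adjusted p. When KO2 was left out, a choice made after the data had been seen, DESeq2 called 3 of 33, Ifih1, Eif2ak2 and Dtx3l, all higher in KO, against 2.27% of all genes called higher. It called 0 of 33 as lower, against 3.68% of all genes. Without WT2, and without WT2 and KO2, DESeq2 called 0 of 34 members (smallest adjusted p 0.0531 and 0.0542), so no member was called under all of these settings. RNA came from whole cultures, so fewer cells that express a gene and less RNA per cell cannot be told apart.

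**Figure D1:**
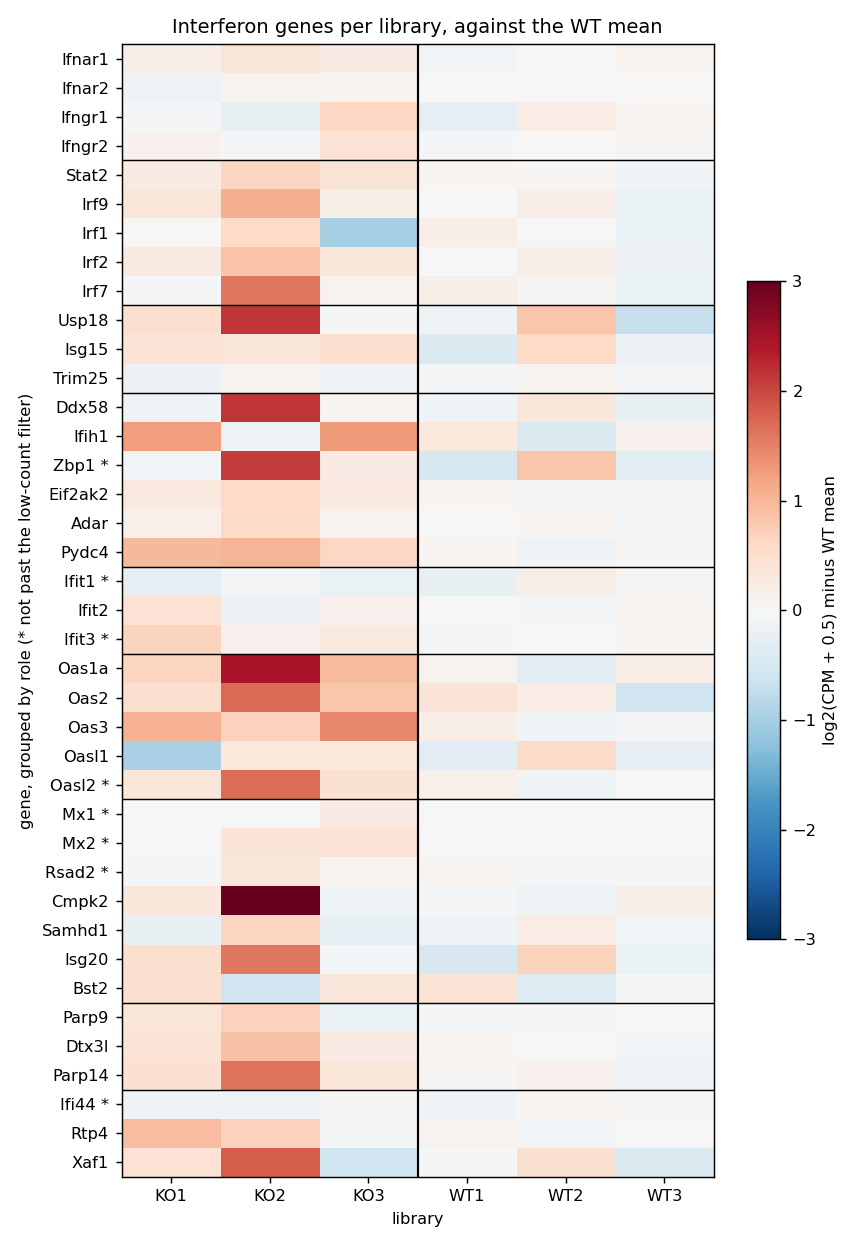
Difference of each library from the WT mean, in log2 units of CPM with an offset of 0.5, for all 39 genes (rows, ordered by role) in the KO and WT lines (columns). The colour scale ends at 3 on either side, and Cmpk2 in KO2 lies beyond it. KO2 is the darkest column for Cmpk2, Ddx58, Oas1a and Usp18, and genes in the receptor rows are pale throughout.

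**Figure D2:**
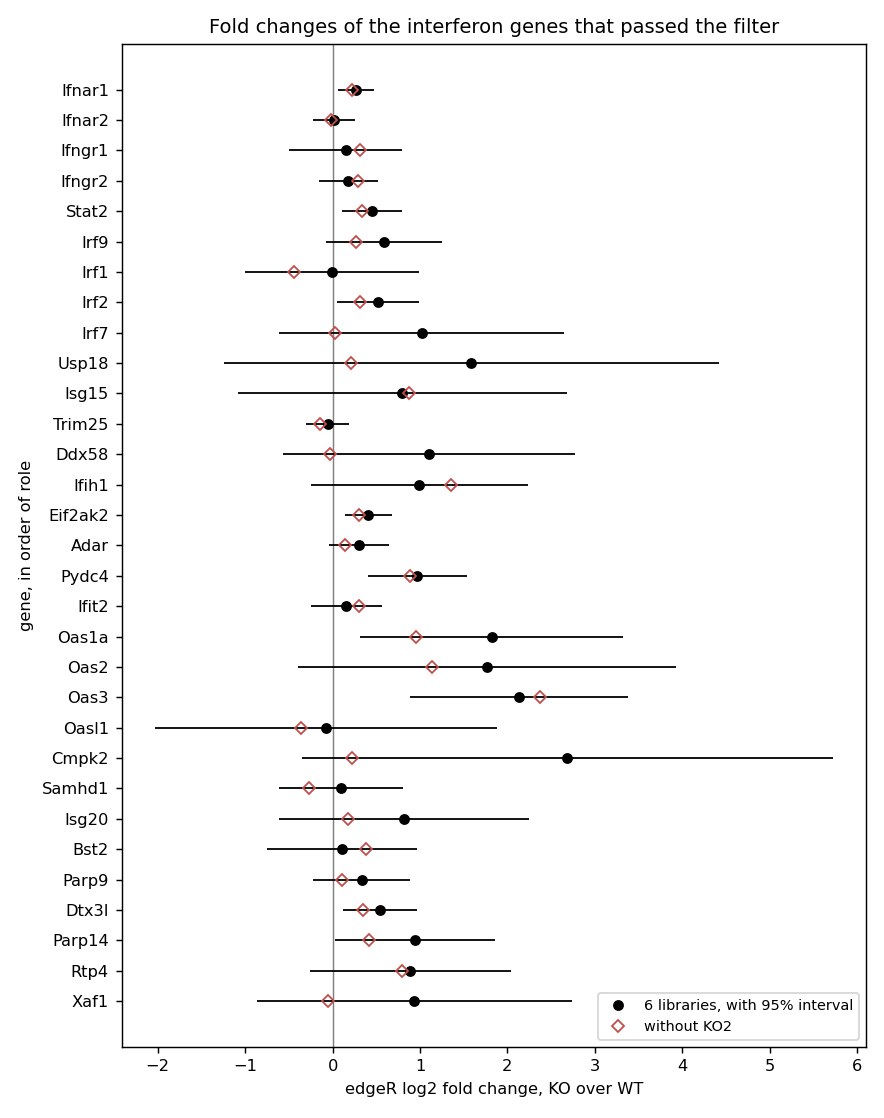
Fitted log2 fold change (KO over WT) of the 31 tested genes with all 6 libraries (filled points, with 95% interval) and with KO2 left out (open diamonds). Most points lie right of 0, and for Cmpk2, Ddx58, Irf7, Usp18 and Xaf1 the value without KO2 is close to 0.

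Of the 4 receptor chains, 1 had separated groups. Ifnar1, the signalling chain of the type I receptor, had 81.5, 92.4 and 84.8 CPM in KO1, KO2 and KO3, against 67.2, 70.8 and 76.7 CPM in WT1, WT2 and WT3. All 3 KO lines lay above all WT lines, and the log2 fold change was 0.27 ± 0.08 (SE, adjusted p = 0.494). Ifnar2, the chain that binds type I interferon most tightly, had 29.3, 34.1 and 33.9 CPM in KO lines, against 31.9, 32.2 and 32.4 CPM in WT lines. The groups overlapped, with a log2 fold change of 0.01 ± 0.10. Ifngr1, the ligand-binding chain for interferon gamma, had 85.1, 76.3 and 138 CPM in KO lines, against 72.5, 103.8 and 93.6 CPM in WT lines. Its high library was KO3, and the other lines of both groups were mixed (log2 fold change 0.15 ± 0.26). Ifngr2, its signalling partner, had 54.7, 48.0 and 67.6 CPM in KO lines, against 48.6, 50.3 and 51.4 CPM in WT lines. Here KO2 was the lowest library, so KO1 and KO3 lay above all WT lines and KO2 below them (log2 fold change 0.18 ± 0.14). Ifnar2, Ifnar1 and Ifngr2 lie close together on chromosome 16 (from chr16:91372783-91405589 to chr16:91547059-91564007, GRCm38), and their groups did not move together.

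Of the signal carriers, Stat2 and Irf2 separated the groups. Stat2, a transcription factor that acts after type I interferon, had 24.3, 31.9 and 26.2 CPM in KO lines, against 21.1, 20.5 and 18.8 CPM in WT lines. Every KO line was above every WT line, with a log2 fold change of 0.45 ± 0.14 (adjusted p = 0.482) that was 0.33 without KO2. Irf9, its DNA-binding partner, had 24.4, 40.3 and 21.7 CPM in KO lines, against 19.1, 21.9 and 16.4 CPM in WT lines. KO2 was well above the rest, and KO3 lay just under WT2. The log2 fold change was 0.59 ± 0.27 (adjusted p = 0.553), and 0.27 without KO2. Irf2, which binds ISRE sequences and can repress them, had 65.9, 99.6 and 69.3 CPM in KO lines, against 54.2, 61.5 and 48.6 CPM in WT lines. Its groups did not overlap, and the log2 fold change was 0.52 ± 0.19 (adjusted p = 0.512), and 0.31 without KO2. Irf1, an activator that interferon gamma induces, had 30.5, 46.7 and 15.2 CPM in KO lines, against 35.7, 30.6 and 26.7 CPM in WT lines. The highest and the lowest library were both KO lines, and the log2 fold change was -0.01 ± 0.40. Irf7, which amplifies type I interferon production, had 0.878, 3.85 and 1.04 CPM in KO lines, against 1.13, 0.959 and 0.742 CPM in WT lines. KO1 and KO3 lay within the WT range, and the log2 fold change of 1.02 ± 0.66 was 0.03 without KO2.

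Promoter sequences are shown for Pydc4, Oas3 and Eif2ak2 because they belong to the 3 members with the smallest unadjusted p in edgeR. Each is the RefSeq window of 300 bases, from 250 before the gene's start to 50 after it, in GRCm38.p6, written 5′ to 3′ on the gene's strand, with matches to the ISRE core in capitals. The core was searched as GAAANNGAAA on both strands.
Pydc4 promoter, chr1:173599223-173599522 (-): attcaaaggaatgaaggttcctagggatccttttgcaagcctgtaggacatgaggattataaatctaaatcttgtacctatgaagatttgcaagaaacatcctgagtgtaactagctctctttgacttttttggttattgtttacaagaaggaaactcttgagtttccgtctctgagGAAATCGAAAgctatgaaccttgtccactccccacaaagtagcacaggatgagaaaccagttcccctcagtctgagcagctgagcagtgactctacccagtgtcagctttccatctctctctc
Oas3 promoter, chr5:120777610-120777909 (-): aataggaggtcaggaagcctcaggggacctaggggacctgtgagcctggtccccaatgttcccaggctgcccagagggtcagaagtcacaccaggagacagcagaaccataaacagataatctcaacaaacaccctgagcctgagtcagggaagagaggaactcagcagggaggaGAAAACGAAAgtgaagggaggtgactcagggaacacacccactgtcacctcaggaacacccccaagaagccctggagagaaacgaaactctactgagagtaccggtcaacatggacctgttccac
Eif2ak2 promoter, chr17:78882523-78882822 (-): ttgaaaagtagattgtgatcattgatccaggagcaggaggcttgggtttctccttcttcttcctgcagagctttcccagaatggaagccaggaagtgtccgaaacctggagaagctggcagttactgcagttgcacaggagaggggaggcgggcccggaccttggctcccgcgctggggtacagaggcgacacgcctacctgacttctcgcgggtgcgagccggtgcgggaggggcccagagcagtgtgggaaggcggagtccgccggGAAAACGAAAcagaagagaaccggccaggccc
In each of them there is 1 match, with the first base of the match 73 bases before the start in Pydc4, 75 before it in Oas3 and 18 after it in Eif2ak2.

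Pydc4, a member of the interferon-inducible family of PYRIN and HIN proteins, had 7.19, 7.54 and 5.53 CPM in KO1, KO2 and KO3, against 3.63, 3.14 and 3.56 CPM in WT1, WT2 and WT3. Every KO line had more than the highest WT line, and KO2 did not stand out. The log2 fold change was 0.97 ± 0.23 in edgeR (adjusted p = 0.479) and 0.98 ± 0.27 in DESeq2 (adjusted p = 0.0251), and in DESeq2 the adjusted p was 0.0834 without KO2, 0.0531 without WT2 and 0.364 without both. Its close relatives lie beside it on chromosome 1, so reads shared between them make its count uncertain. Eif2ak2, which encodes PKR, the kinase that stops translation on sensing double-stranded RNA, had 60.4, 75.4 and 60.8 CPM in KO lines, against 51.3, 48.4 and 48.5 CPM in WT lines. The groups did not overlap, and KO2 was the highest library. Its log2 fold change was 0.41 ± 0.11 (edgeR, adjusted p = 0.479), and without KO2 it was 0.30, with an adjusted p of 0.0421 in DESeq2.

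The other sensors were Ddx58, Ifih1, Adar and Zbp1. Ddx58, which encodes the RNA sensor RIG-I, had 10.7, 53.0 and 12.2 CPM in KO lines, against 10.6, 14.8 and 9.84 CPM in WT lines. KO2 alone was high, and the log2 fold change of 1.10 ± 0.68 was -0.03 without it. Ifih1, which encodes the RNA sensor MDA5, had 8.01, 2.72 and 8.22 CPM in KO lines, against 3.96, 2.13 and 3.41 CPM in WT lines. KO1 and KO3 were above all WT lines, and the lowest library of each group was the one numbered 2. Its log2 fold change was 0.99 ± 0.50 in edgeR, and without KO2 it was 1.36, with an adjusted p of 0.0152 in DESeq2. Ddx58 and Ifih1, whose proteins are related sensors of viral RNA, thus had opposite patterns over the KO lines. Adar, which edits adenosines in double-stranded RNA, had 109.5, 145.9 and 105.2 CPM in KO lines, against 96.1, 102.6 and 94.5 CPM in WT lines. Its groups did not overlap, with a log2 fold change of 0.30 ± 0.14 that was 0.14 without KO2. Of its exons 1365 bases are shared with Chrnb2 on the other strand. Zbp1, a sensor of Z-form nucleic acids, had 3, 49 and 7 counts in KO lines, against 0, 14 and 1 counts in WT lines, and was not tested.

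**Figure D3:**
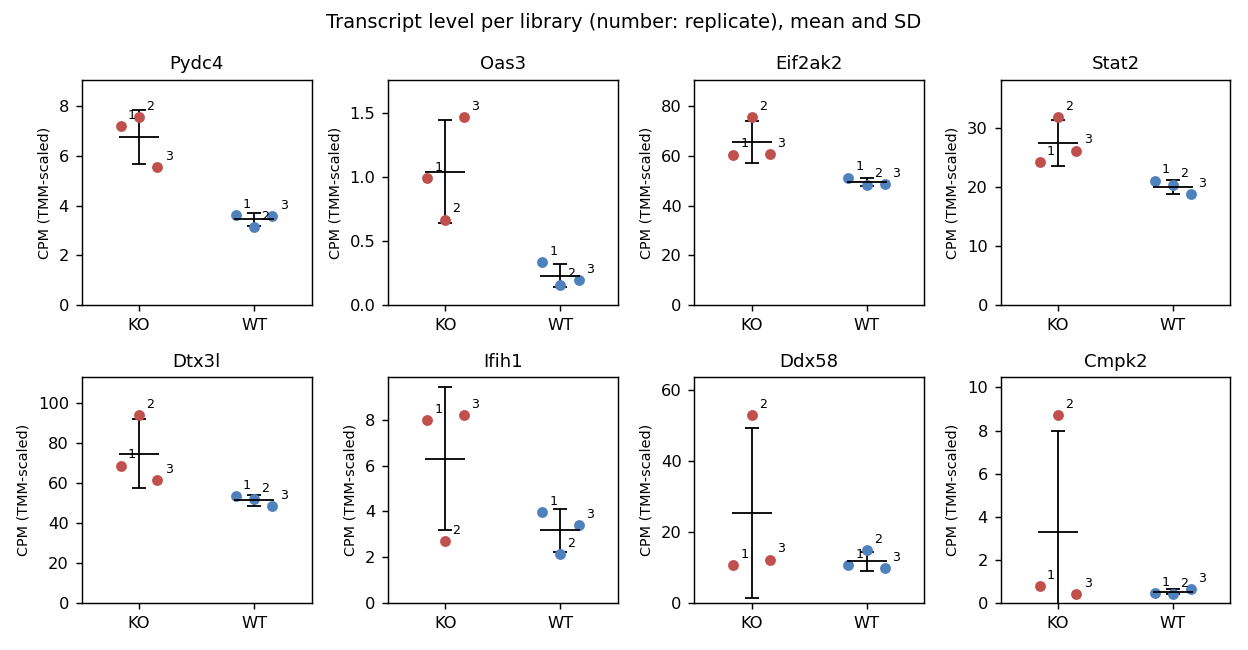
CPM per library for selected genes, KO lines on the left and WT lines on the right, each point a library numbered by its line, with mean and SD (n = 3 each, bars that would pass below 0 end at 0). Pydc4 and Eif2ak2 have all KO points above all WT points, while in Ddx58 and Cmpk2 KO2 is the only high point.

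The Oas family, whose enzymes make the 2′-5′ oligoadenylates that activate RNase L, had the largest median among the roles, 1.79 on the log2 scale over 4 tested genes and 1.05 without KO2. All of its genes were low. Oas1a had 2.96, 11.6 and 3.73 CPM in KO lines, against 1.88, 1.28 and 2.03 CPM in WT lines. The groups did not overlap, and the log2 fold change of 1.82 ± 0.61 (adjusted p = 0.495) was 0.96 without KO2. Oas3 had 18, 13 and 31 counts in KO lines (0.988, 0.667 and 1.46 CPM), against 8, 3 and 4 counts in WT lines (0.334, 0.160 and 0.198 CPM). Here KO3 was the highest library and KO2 the lowest of its group, with a log2 fold change of 2.13 ± 0.50 (adjusted p = 0.479) and 2.37 without KO2. No WT line of Oas3 reached the level of the low-count filter, so the gene entered the test, and the family's median, through its KO lines alone. Oas2 had 12, 43 and 21 counts in KO lines, against 14, 9 and 1 counts in WT lines. In CPM its groups separated narrowly, 0.659 in KO1 against 0.584 in WT1, and the log2 fold change was 1.77 ± 0.87, and 1.14 without KO2. Oasl1, which represses translation of Irf7, had 3, 22 and 24 counts in KO lines, against 13, 27 and 12 counts in WT lines. The highest library was WT2, and the log2 fold change was -0.07 ± 0.79. Oasl2 had 5, 28 and 7 counts in KO lines, against 4, 1 and 2 counts in WT lines, and did not pass the filter. In CPM its KO lines (0.274, 1.44 and 0.331) all lay above its WT lines (0.167, 0.0533 and 0.0989), on few counts. Oas2, Oas3 and Oas1a lie side by side on chromosome 5 (chr5:120730333-120749886, chr5:120753098-120777684 and chr5:120896256-120907544), and the family's relatedness leaves counts uncertain where reads match several copies.

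The 3 Ifit genes, which encode proteins that bind foreign RNA ends or viral components, differed in level. Ifit2 had 69.1, 45.2 and 55.3 CPM in KO lines, against 50.3, 48.5 and 53.5 CPM in WT lines. KO1 and KO3 lay above the WT lines and KO2 below them. Its log2 fold change was 0.15 ± 0.16. Ifit1 had 1, 3 and 2 counts in KO lines, against 2, 5 and 4 counts in WT lines, and Ifit3 had 16, 9 and 12 counts in KO lines, against 8, 7 and 8 counts in WT lines. Ifit1 was at 1 to 5 counts, around the floor. Ifit3 was low, at 7 to 16 counts, with all KO lines above all WT lines in CPM (0.878, 0.462 and 0.567 CPM in KO lines, against 0.334, 0.373 and 0.396 CPM in WT lines), and neither passed the filter. Both lie beside Ifit2 on chromosome 19 (chr19:34550550-34576534 for Ifit2, chr19:34583119-34588982 for Ifit3 and chr19:34640889-34650009 for Ifit1). Per length, Ifit2 stood at 14.4 CPM per kilobase of exon in KO lines and 12.9 in WT lines, against 0.364 and 0.211 for Ifit3 and 0.0381 and 0.0687 for Ifit1.

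The Parp9 group are neighbours on chromosome 16, and Parp9 and Dtx3l encode partners of 1 ADP-ribosylating and ubiquitylating complex. Dtx3l, the ubiquitin ligase, had 68.7, 94.0 and 61.3 CPM in KO lines, against 53.4, 51.9 and 48.4 CPM in WT lines. All KO lines were above all WT lines, with a log2 fold change of 0.54 ± 0.17 (edgeR, adjusted p = 0.495). Without KO2 it was 0.35, with an adjusted p of 0.0495 in DESeq2. Parp9 had 66.1, 84.1 and 45.03 CPM in KO lines, against 50.0, 53.3 and 51.9 CPM in WT lines. KO3 was the lowest of all 6 libraries, so the groups overlapped, with a log2 fold change of 0.33 ± 0.23 that was 0.11 without KO2. Parp14, another ADP-ribosyltransferase, had 41.1, 92.8 and 38.6 CPM in KO lines, against 30.4, 32.7 and 26.7 CPM in WT lines. Its groups did not overlap, KO2 was far above the rest, and the log2 fold change of 0.94 ± 0.37 (adjusted p = 0.529) was 0.42 without it. Parp9 (chr16:35938470-35972621) and Dtx3l (chr16:35926515-35939027) share 458 exon bases on opposite strands, and the sources used here do not give the strand setting of the counting, so reads there cannot be assigned to either.

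Several effector genes were high in KO2 alone. Cmpk2, a mitochondrial nucleotide kinase, had 14, 170 and 9 counts in KO lines (0.769, 8.72 and 0.425 CPM), against 11, 8 and 13 counts in WT lines (0.459, 0.426 and 0.643 CPM). KO1 and KO3 were near the WT lines, and the log2 fold change of 2.68 ± 1.23 was 0.22 without KO2. Its divergent neighbour Rsad2, which encodes viperin, had 0, 3 and 1 counts in KO lines, against 1, 0 and 0 counts in WT lines, so it was at or under the floor throughout. Usp18, the protease that removes ISG15 and damps the type I receptor, had 16, 74 and 9 counts in KO lines, against 9, 23 and 2 counts in WT lines. The line numbered 2 was the highest of each group. The 67 placed genes within 5 Mb of Usp18 on chromosome 6 had a median of 0.65 above the WT mean (log2) in KO2, and no other member had neighbours as high. Isg20, an exonuclease, had 5.71, 13.0 and 3.87 CPM in KO lines, against 2.71, 6.66 and 3.41 CPM in WT lines, again with the lines numbered 2 highest. Xaf1, a pro-apoptotic gene, had 3.79, 10.7 and 1.61 CPM in KO lines, against 2.63, 3.89 and 1.88 CPM in WT lines, and its log2 fold change of 0.94 ± 0.73 was -0.05 without KO2. Samhd1, which degrades dNTPs, had 63.0, 115 and 59.4 CPM in KO lines, against 66.6, 86.3 and 68.9 CPM in WT lines. KO2 was above the WT range, and KO1 and KO3 were both below it.

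The rest showed no separation. Isg15, the ubiquitin-like modifier that is among the classic markers of type I interferon exposure, had 10, 10 and 13 counts in KO lines, against 2, 13 and 4 counts in WT lines. WT2 was its highest library, and no library reached 1 CPM. Trim25, the ligase that activates RIG-I, was high and even, with 148.8, 182.8 and 156 CPM in KO lines, against 163.8, 179.9 and 163.6 CPM in WT lines. Bst2, which encodes the virus-retaining protein tetherin, had 35.5, 16.6 and 32.0 CPM in KO lines, against 33.9, 19.3 and 24.9 CPM in WT lines, with the lines numbered 2 lowest. Rtp4, a receptor chaperone, had 31, 27 and 13 counts in KO lines, against 18, 11 and 13 counts in WT lines. The antiviral GTPase genes were at the edge of detection, with Mx1 at 0, 0 and 2 counts in KO lines and 0 in all WT lines, and Mx2 at 3, 7 and 8 counts in KO lines, against 4, 3 and 3 counts in WT lines. Ifi44 had at most 1 count in any library.

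Over the 31 tested members, the median difference from the WT mean was 0.35 in KO1, 0.68 in KO2 and 0.24 in KO3, and it was -0.01, 0.03 and -0.06 in WT1, WT2 and WT3 (log2 CPM with an offset of 0.5). Over all tested genes the median of every library was within 0.02 of 0. KO2 was the highest library for 22 of the 31 members, against 31.1% of all tested genes. It lay at least 1 log2 unit above the WT mean in 11 of them, Irf9, Irf7, Usp18, Ddx58, Pydc4, Oas1a, Oas2, Cmpk2, Isg20, Parp14 and Xaf1, against 6.1% of all tested genes. In KO1 and in KO3 the same distance was reached by Ifih1 and Oas3, which were not on the list for KO2. With KO2 left out, KO1 and KO3 were both above all WT lines in 15 of 32 members, against 20.4% of all tested genes, and both below them in 2, Trim25 and Samhd1, against 21.1%. WT2 was the highest WT line in 14 of the 31 members, and in 11 of these 14 KO2 was the highest KO line, against 62.4% of the genes with WT2 highest among all tested genes. As KO2 was the highest library for 22 of the 31 members, this count does not separate sharing between the lines numbered 2 from a high KO2.

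**Figure D4:**
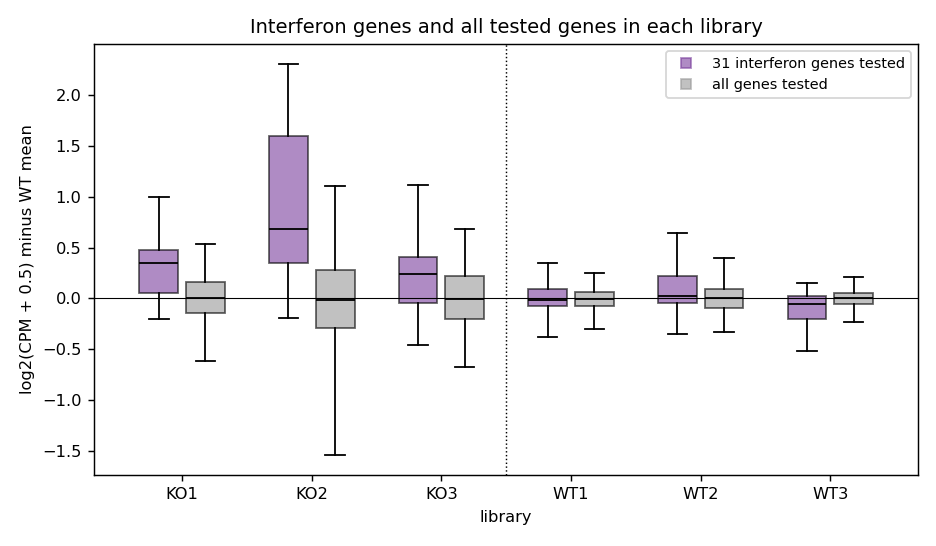
Distribution over genes of the difference from the WT mean (log2 CPM with an offset of 0.5) in each library, KO lines left of WT lines, for the 31 tested members and for all 10896 tested genes. Boxes span the middle 50% of genes with a line at the median, and whiskers the middle 90%. The member medians of KO1, KO2 and KO3 are 0.35, 0.68 and 0.24, and all other medians lie near 0.

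Per length, the members spanned a wide range within the same lines. Ifngr1 was the highest in both groups with 35.0 CPM per kilobase of exon in KO lines and 31.6 in WT lines, followed in WT lines by Trim25 (28.2 in KO lines and 29.4 in WT lines) and Bst2 (31.03 in KO lines and 28.8 in WT lines). Of the 39 members 7 stayed under 1 CPM in every library, Isg15, Ifit1, Ifit3, Mx1, Mx2, Rsad2 and Ifi44. Receptors, signal carriers and several sensors were thus expressed in both groups. Many of the genes that respond most strongly to type I interferon in other settings were low in both, with Ifit1, Mx1, Rsad2 and Ifi44 around or under the floor.

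The ISRE core occurred in the promoter windows of 13 of the 31 members that have an entry in the RefSeq table (41.9%), against 3.99% of all 27025 genes in the table and 3.44% of its 32851 windows. The members with a match were Stat2, Irf2, Isg15, Ddx58, Ifih1, Eif2ak2, Pydc4, Ifit1, Ifit3, Oas1a, Oas3, Rsad2 and Bst2. The GAS sequence TTCCNGGAA, also searched on both strands, occurred in 3 of the 31 (9.68%), Ifnar2, Ifit2 and Bst2, against 1.35% of all genes and 1.15% of all windows. Matches of the 2 motifs overlap in Bst2. Stretches of 30 bases around ISRE matches are printed for some of these genes, which were picked after the matches had been seen. They include genes with separated groups, genes with overlapping groups and genes with few counts. Bst2, whose groups overlapped, is not printed. The stretches are in the gene's direction, GRCm38.p6 from RefSeq, with the matched bases in capitals. Overlapping matches are joined.
Stat2, chr10:128270266-128270295 (+): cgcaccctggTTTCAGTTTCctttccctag
Irf2, chr8:46739495-46739524 (+): tggggaagtGAAAATGAAAttgacttttcc
Oas1a, chr5:120907523-120907552 (-): ttctcggGAAATGGAAACTGAAAatctact
Ddx58, chr4:40239804-40239833 (-): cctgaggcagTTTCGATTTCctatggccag
Ifih1, chr2:62646206-62646235 (-): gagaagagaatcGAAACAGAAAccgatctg
Isg15, chr4:156200871-156200900 (-): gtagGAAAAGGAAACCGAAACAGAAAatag
Ifit1, chr19:34640794-34640823 (+): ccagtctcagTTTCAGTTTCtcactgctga
Ifit3, chr19:34583397-34583426 (+): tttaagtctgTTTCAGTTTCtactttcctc
Rsad2, chr12:26456553-26456582 (-): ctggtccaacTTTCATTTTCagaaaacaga
In Stat2, Ddx58, Ifit1, Ifit3 and Rsad2 the match is on the opposite strand, so the capitals are its reverse complement, and Ifit1 and Ifit3 each hold a second match that is not printed. Stat2, Irf2 and Oas1a had all KO lines above all WT lines, while Ifit1 and Rsad2 carry the same core and had at most 5 and 3 counts in any library. Of the tested members 10 have an ISRE core match, with a median log2 fold change of 0.88 (0.11 to 2.13) that was 0.63 without KO2. In 6 of them all KO lines lay above all WT lines, against 8.58% of all tested genes. Oas3, with the value of 2.13, is among the 6, and it entered the test through its KO lines alone. The 16 tested members with a window and no match had a median of 0.22 (-0.07 to 2.68) and 3 with separated groups, and it was 0.16 without KO2. A match in these letters is a description of the window, and binding was not measured.

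**Figure D5:**
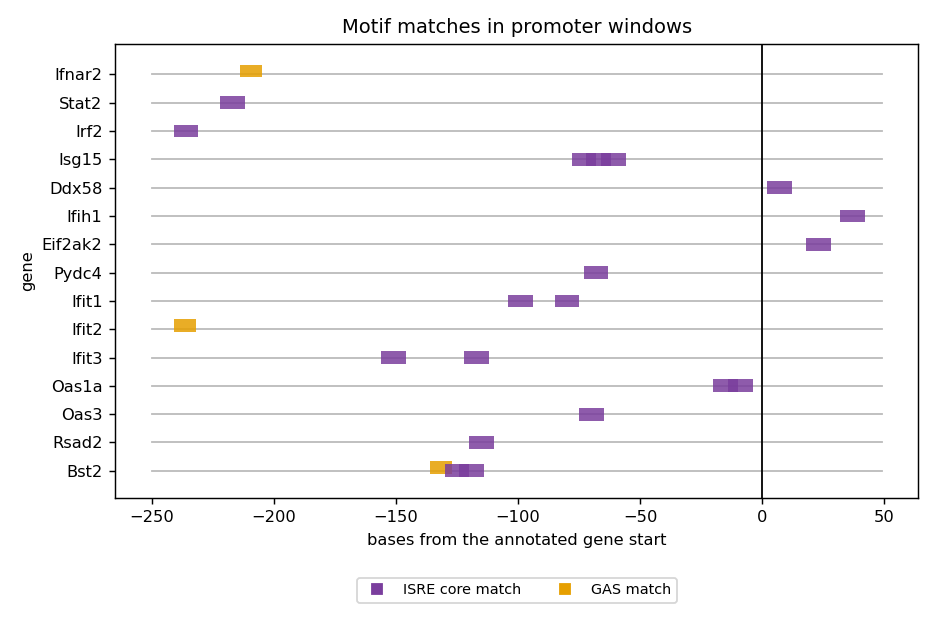
Positions of ISRE core and GAS matches relative to the gene's start in the promoter windows (250 bases before to 50 after) of the members with a match, in bases. Most ISRE matches lie before the start, farthest in Irf2 and Stat2 (241 and 222 bases), and those of Ddx58, Eif2ak2 and Ifih1 lie after it.

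The rest of the interferon pathway was followed in a list of 113 genes, of which 103 have a row and 79 were tested. Of 10 interferon ligand genes 8 have a row, and all 8, Ifnb1 among them, had 0 counts in every library, which allows at most the floor of 3 counts per library. None of the 79 was called by edgeR. DESeq2 called 3 of 81, all higher in KO (Trim56, Sp110 and Parp11), beside 0.705% of all genes called higher and 1.24% called lower. Without KO2 it called 6 of 84, of which Trim56 and Sp110 were higher in KO and Tmem173, Ifitm1, Ifitm2 and Samd9l were lower, beside 2.27% of all genes called higher and 3.68% called lower. The median log2 fold change was 0.26, and 0.06 without KO2. The log2 fold change was above 0 in 65 of the 79, against 52.8% of all tested genes. At an unadjusted p under 0.05 in edgeR, 11 of the 79 were higher and 1 was lower in KO, against 4.35% and 5.1% of all tested genes. All KO lines lay above all WT lines in 11 and below them in 1, against 8.58% and 11% of all tested genes. With KO2 left out, KO1 and KO3 were both above all WT lines in 14 of 81, against 20.4% of all tested genes. They were both below them in 10 of 81, against 21.1%.

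Trim56, a ubiquitin ligase linked to the cGAS and STING pathway, had 65.6, 70.8 and 70.5 CPM in KO lines, against 40.6, 39.7 and 43.5 CPM in WT lines. The groups were far apart and KO2 did not stand out. Its log2 fold change was 0.74 ± 0.08, with an adjusted p of 0.475 in edgeR and 5.9e-12 in DESeq2. Sp110, a nuclear body protein, had 23.0, 19.9 and 18.8 CPM in KO lines, against 13.4, 14.6 and 11.4 CPM in WT lines (log2 fold change 0.65 ± 0.15, adjusted p = 0.0268 in DESeq2, and 0.0697 without WT2 and KO2). Parp11, an ADP-ribosyltransferase, had 22.4, 30.3 and 35.2 CPM in KO lines, against 18.2, 17.7 and 15.5 CPM in WT lines (log2 fold change 0.77 ± 0.19, adjusted p = 0.0384 in DESeq2). Without KO2, without WT2 and without both, the adjusted p of Parp11 in DESeq2 was 0.052, 0.0625 and 0.143. In both genes every KO line was above every WT line. Irf3, the factor that starts interferon production after sensing, had 87.1, 94.2 and 92.9 CPM in KO lines, against 70.6, 82.2 and 75.9 CPM in WT lines. Oas1b had 3.07, 2.10 and 1.94 CPM in KO lines, against 1.00, 1.23 and 1.14 CPM in WT lines, and it is a close relative of Oas1a. Trim34a and Znfx1 were also higher in KO lines, with log2 fold changes of 1.13 ± 0.37 and 0.40 ± 0.15. Nampt, which makes a precursor of NAD, was the gene below all WT lines, with 113.3, 112.4 and 112.5 CPM in KO lines, against 133.3, 127.5 and 123.8 CPM in WT lines. The kinases of the receptor tails overlapped between groups, with Jak1 at 349, 689 and 281 CPM in KO lines, against 335, 427 and 369.6 CPM in WT lines.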

How the data were processed

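RNA extracted from the 6 lines was made into TruSeq libraries, per the labels' protocols. The authors deposited 1 table of unnormalized counts per gene symbol, 1 column per library. Trim Galore, STAR, DESeq2 and GRCm38 are named per the submitters' processing notes. Not given in the sources used here: their roles and versions, how reads were counted, with which annotation, and whether by strand.

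Counts were scaled by TMM, filtered with filterByExpr on genotype and tested across the whole table with edgeR 4.0.16 (robust quasi-likelihood F test, two-sided, Benjamini-Hochberg adjustment over 10896 genes, threshold 0.05) in R 4.3.3. DESeq2 1.42.0 and limma-voom (limma 3.58.1) were alternatives, beside other scalings, filters, a replicate block and leaving out libraries. The fitting code was also run on simulated counts with known changes. Those counts were drawn independently, with no library set apart as KO2 is, so that run does not show how the test behaves on these data. CPM are TMM-scaled, and log2 differences per library used an offset of 0.5 CPM. Floors cover counting error only, while standard errors and 95% intervals come from the edgeR fit and include the spread between lines.

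Same-numbered KO and WT libraries deviated together from their group means (correlations across genes of 0.36, 0.67 and 0.47, each above 0.1). On that criterion the numbers were taken to pair the libraries in the blocked fit. Correlations between differently numbered libraries were not computed. Deviations from a group mean cancel within the group, so a shift shared by KO2 and WT2 alone can make the other correlations positive. The criterion therefore cannot show that the numbers pair the libraries. The labels do not say what a number stands for.

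Locations and promoters came from RefSeq tables of GRCm38, with 38 members matched by symbol and 1 by synonym. The members and lists were chosen with earlier results of these data known. Every member is named, with values per library for receptors, signal carriers, members at an unadjusted p under 0.05 and the Ifit, Oas and Parp9 groups. Of the other pathway genes the 8 with the smallest p and a mean of at least 1 CPM were named, and Jak1 was added after its values were seen. Promoters were printed for up to 5 members with the smallest p.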

Additional observations from a re-analysis of the deposited data

How the results depend on the processing

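No member was called by edgeR under RLE size factors, library totals alone, no robust estimates, a filter of 1 CPM in 3 libraries, no filter on low counts, the replicate block, leaving out any library, or without WT2 and KO2, nor by limma-voom (7 members at an unadjusted p under 0.05). The count of members called was 1 in DESeq2, 3 without KO2, 0 without WT2 and 0 without both. Without both, the adjusted p of Ifih1, Eif2ak2 and Dtx3l was 0.0542, 0.304 and 0.208. Of the other pathway genes DESeq2 called 3, all higher in KO (0.705% of all genes were called higher and 1.24% lower). It called 6 without KO2, 2 higher and 4 lower (2.27% and 3.68%), 3 without WT2, all higher (0.978% and 1.44%), and 5 without both, 1 higher and 4 lower (1.17% and 1.72%). With the replicate block, which pairs the libraries by number, the members' median was 0.52, and the block changed no call. In that fit 12 members had an unadjusted p under 0.05. For this count and the 7 in limma-voom no share over all tested genes is given, so neither is read further. The median of 0.54 was 0.78 with no low-count filter, 0.30 without WT2 and KO2, 0.29, 0.74 and 0.35 in DESeq2 without KO2, without WT2 and without both, and 0.30 to 0.69 when 1 library was left out. Members with all KO above all WT libraries numbered 19 of 31 without WT2 and KO2 (27% of all tested genes), 18 of 34 in DESeq2 without WT2 (13.9%), 21 of 34 in DESeq2 without both (26.3%), and 12 to 17 with 1 library left out (10.6% to 20.4%). Those below numbered 2 without WT2 and KO2 (26.7%), in DESeq2 without KO2 (21.1%) and in DESeq2 without both (26.6%). They numbered 0 to 2 with 1 library left out (12% to 21.1% of all tested genes). Fewer libraries separate by construction more often. Of 551 single-gene values 28 changed sign, all of genes without separated groups. Separated groups stay separated when libraries are left out, so for those genes this was largely fixed in advance. With 1 library left out the log2 fold change ran from -0.44 to 0.32 for Irf1, -0.14 to 0.0043 for Trim25, -0.012 to 0.30 for Ifit2, -0.40 to 0.51 for Oasl1, -0.10 to 0.38 for Bst2, -0.023 to 0.081 for Ifnar2, -0.16 to 0.32 for Ifngr1, -0.032 to 1.47 for Ddx58, -0.27 to 0.27 for Samhd1 and -0.050 to 1.37 for Xaf1. Irf1 was 0.0013 with RLE size factors. Without WT2 and KO2, Ifnar2 was -0.019, Oasl1 0.22 and Samhd1 -0.14, and DESeq2 without both gave -0.019, 0.21 and -0.14. DESeq2 without KO2 gave -0.020 for Ifnar2, -0.033 for Ddx58, -0.27 for Samhd1 and -0.052 for Xaf1, and without WT2 it gave 0.52 for Oasl1 and -0.068 for Bst2. The cause of these changes was not tested. Leaving out KO2 or WT2 with DESeq2 was chosen after the data had been seen. Members at a low level, such as Oas3, Isg15 and Rtp4, rest on few counts. Differences among the Mx genes, Rsad2, Ifit1 and Ifi44 were not detectable at this depth.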

Other observations

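Some other genes of the interferon pathway were spread widely over the KO lines. They were chosen after their values were seen. Ifitm1, a membrane protein that blocks virus entry, had 0.549, 331.5 and 2.08 CPM in KO1, KO2 and KO3, against 37.9, 170.9 and 26.6 CPM in WT1, WT2 and WT3. KO1 and KO3 were below all WT lines and KO2 above them. Without KO2, DESeq2 called it lower in KO, with a log2 fold change of -5.89 (adjusted p = 0.00011), and with all 6 libraries it gave no adjusted p. Tlr7, an endosomal receptor for RNA, had 50.9, 0.154 and 40.3 CPM in KO lines, against 65.8, 47.8 and 60.2 CPM in WT lines, so that only KO2 was near the floor of 3 counts. Gbp2, a GTPase that interferon gamma induces, had 21.3, 144.7 and 9.40 CPM in KO lines, against 15.3, 42.6 and 13.9 CPM in WT lines. Dhx58, which encodes the RIG-I relative LGP2, had 4.67, 24.4 and 4.11 CPM in KO lines, against 3.09, 5.80 and 2.47 CPM in WT lines. In Gbp2, Dhx58 and Ifitm1 the line numbered 2 was the highest of each group. Tmem173, which encodes STING, had 84.3, 204 and 92.7 CPM in KO lines, against 111, 135 and 121 CPM in WT lines, and was called lower in KO by DESeq2 without KO2 (log2 fold change -0.46, adjusted p = 0.00676). Ifitm2 and Samd9l were also called lower in KO there, with log2 fold changes of -0.41 and -0.59.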
